A study of Mus musculus and Rattus norvegicus with 28 samples.

Results

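The chromatin and transcript libraries compared here came from mouse cardiomyocytes at postnatal day 1 (P1), and the question was how far an open promoter and the level of the transcript went together in separate samples of these cells. A gene counted as having a promoter peak when the nearest base of an ATAC-seq peak lay within 2.5 kb of any of its transcript starts. A total of 7867 of 55450 annotated genes had such a peak in both P1 peak lists (14.2%) and 40439 had none in either, which gave 48306 genes to compare. The other 7144 genes had a peak in only 1 list and were kept apart. The choice of genes used the peak lists alone, so the transcript levels played no part in it.

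The study followed left ventricular cardiomyocytes of wild-type C57BL/6 mice from embryonic day 18.5 (E18.5) through P1, P3 and P7, and 4 of its 28 samples belong to P1 and these assays. The pups were of both sexes, cells that settled early were removed to enrich cardiomyocytes, and the labels name no treatment of the mouse cells. Each assay had 2 libraries at P1, and nothing states that their replicate numbers pair the assays. ATAC-seq, in which a transposase cuts DNA that nucleosomes leave exposed, gave lists of 29281 and 19753 peaks, and poly-A RNA-seq gave FPKM (fragments per kilobase of transcript, scaled to library size) from 5.40 and 5.63 Gb of aligned sequence.

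A promoter is the stretch of DNA around a transcript start where transcription factors and RNA polymerase assemble. It is commonly depleted of nucleosomes when the gene is used, so it is cut readily in ATAC-seq. Many promoters of broadly used genes lie in CpG islands, which can stay open when little is transcribed, while promoters of cell-type-specific genes often lack them. An open promoter is thus known as a frequent companion of transcription rather than a measure of its rate.

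Some sequences show the contrasts that the values below describe. The first 3 are the 250 bases before the most used transcript start, read from the mm10 genome on the strand of the gene, with every TATAAA, every CCAAT and every GGGCGG in capitals, read on either strand. Tpm1 (chr9:67049214-67049463, minus strand) encodes tropomyosin 1 of the thin filament and had a peak over its start in both lists. Rpl8 (chr15:76903828-76904077, plus strand) encodes a protein of the large ribosomal subunit, and Nppa (chr4:148000472-148000721, plus strand) encodes atrial natriuretic peptide. Rpl8 and Nppa had no peak at P1.
Tpm1: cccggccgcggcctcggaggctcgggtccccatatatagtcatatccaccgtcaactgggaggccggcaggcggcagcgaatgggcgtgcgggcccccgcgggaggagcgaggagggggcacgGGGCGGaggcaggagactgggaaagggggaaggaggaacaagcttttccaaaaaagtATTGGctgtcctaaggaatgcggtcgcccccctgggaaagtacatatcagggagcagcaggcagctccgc
Rpl8: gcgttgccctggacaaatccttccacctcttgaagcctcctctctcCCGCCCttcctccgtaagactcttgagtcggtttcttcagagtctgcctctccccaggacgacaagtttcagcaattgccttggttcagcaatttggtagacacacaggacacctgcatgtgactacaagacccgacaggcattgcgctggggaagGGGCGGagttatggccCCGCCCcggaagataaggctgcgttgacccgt
Nppa: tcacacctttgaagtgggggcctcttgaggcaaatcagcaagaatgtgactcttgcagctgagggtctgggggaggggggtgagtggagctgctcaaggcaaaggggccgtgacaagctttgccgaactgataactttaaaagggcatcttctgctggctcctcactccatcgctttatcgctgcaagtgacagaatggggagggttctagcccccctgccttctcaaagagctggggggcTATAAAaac
In windows of 300 bases around the starts of all genes, which reach 50 bases into the transcript, TATAAA was in 17.2%, CCAAT in 38.0% and GGGCGG in 23.1%. Tpm1 held 1 CCAAT and 1 GGGCGG, Rpl8 held 3 GGGCGG, and Nppa held 1 TATAAA that began 9 bases before the start.

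The last sequence is 300 bases centred on the summit of a very strong peak beside a gene with no transcript listed, on the plus strand of mm10, with its most frequent word of 6 bases in capitals. Slc45a1 encodes a sugar transporter of the plasma membrane, and the peak lies in an intron (chr4:150644886-150645185).
Slc45a1: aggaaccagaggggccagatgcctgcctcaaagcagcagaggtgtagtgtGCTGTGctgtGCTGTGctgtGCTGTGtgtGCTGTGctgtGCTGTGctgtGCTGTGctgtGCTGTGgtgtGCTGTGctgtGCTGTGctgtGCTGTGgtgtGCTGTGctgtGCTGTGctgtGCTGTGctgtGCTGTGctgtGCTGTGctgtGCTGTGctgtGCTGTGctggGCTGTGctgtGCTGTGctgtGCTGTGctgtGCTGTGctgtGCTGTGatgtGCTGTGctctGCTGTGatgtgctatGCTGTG
The word GCTGTG stood 25 times in this window.

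Genes with a promoter peak in both lists had far higher transcript levels than genes with none. Their median FPKM was 6.34 in RNA-seq replicate 1 and 6.58 in replicate 2, whereas the median gene without a peak was listed at 0 in both libraries. A mean FPKM of at least 1, called expressed from here on, was reached by 5589 genes with a peak (71.0%) and by 3394 without one (8.39%), against 23.3% of all genes. Genes with a peak in 1 list lay between the other groups, with a median of 1.92 and 54.8% expressed.

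Gene type also differed between the groups, as 5970 of the 7867 genes with a peak were protein-coding and 11223 of the 40439 without one. A peak in both lists was thus found for 27.2% of protein-coding genes. Among protein-coding genes the median FPKM was 10.7 and 11.1 in the 2 libraries with a peak, and 0 in both without. The share expressed was 89.6% with a peak, 78.5% with a peak in 1 list and 23.8% without, against 53.5% of all protein-coding genes. Of long intergenic RNAs, 37 of 358 with a peak were expressed (10.3%) and 72 of 4938 without (1.46%). Of processed pseudogenes, 13 of 165 with a peak and 441 of 9456 without were expressed (7.88% and 4.66%). Pseudogenes share sequence with their parent genes, so their reads are uncertain.

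A gene with more transcript starts has more windows in which a peak can fall. Protein-coding genes with a peak had a median of 5 annotated starts and those without had 2. Among protein-coding genes with a single start, 365 of 570 with a peak were expressed (64.0%), against 399 of 3734 without (10.7%). The contrast was thus also present where every gene had 1 window.

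The contrast was present in each pairing of 1 peak list with 1 RNA-seq library. The difference in median log2(FPKM + 1) between genes with and without a peak was 2.53 to 2.64 over the 4 pairings, and 2.92 for genes with a peak in both lists against neither. When a gene with a peak and a gene without were drawn at random, the former had the higher FPKM in 80.6% to 85.4% of draws. These figures describe genes, which are not independent replicates, and no p-value was computed. The libraries are separate samples, but nothing states that they came from separate litters, so the range between pairings may be technical in part.

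The share of promoters with a peak climbed with the transcript level and then flattened. Among protein-coding genes listed at FPKM 0, 2.09% had a peak in both lists and 93.3% had none. At FPKM 1 to 3 the share with a peak in both was 29.8%, at 3 to 10 it was 44.3% and at 10 to 30 it was 49.5%. Above that it stayed near this value, at 52.4% for 30 to 100, 54.6% for 100 to 300 and 54.6% for 300 or more. Of the 194 most abundant protein-coding transcripts, 30 (15.5%) had no promoter peak.

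**Figure D1:**
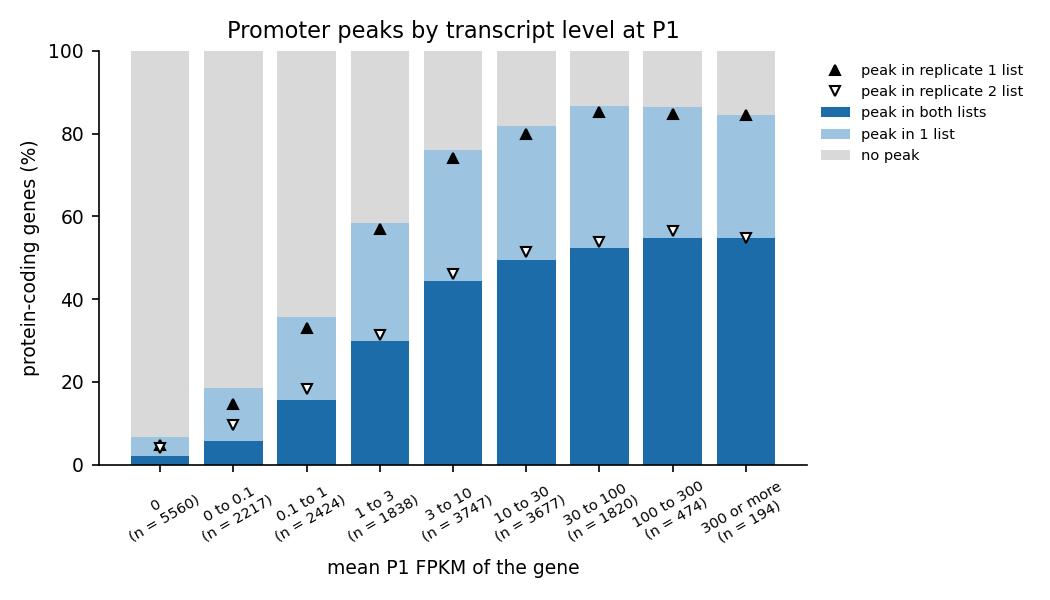
Share of protein-coding genes with a promoter peak in both P1 lists, in 1 list or in neither (stacked bars, per cent), by mean P1 FPKM of the gene, with the share in each list alone as triangles. The share with a peak in both lists goes from 2.09% at FPKM 0 to 54.6% at 300 or more and changes little above FPKM 30, and replicate 1 lies above replicate 2 in every bin.

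The lists differed in more than length. Of the peaks of replicate 1, 46.7% lay at promoters and 38.9% overlapped a peak of replicate 2, and of the peaks of replicate 2, 37.9% lay at promoters and 56.9% overlapped a peak of replicate 1. Windows of 300 bases around the summits were repeat-masked over at least 50% of their length in 15.1% of replicate 1 peaks and 36.1% of replicate 2 peaks. Genes with a peak in replicate 1 alone numbered 6166 with a median FPKM of 3.10, and those in replicate 2 alone numbered 978 with a median of 0.00819. Most genes with a peak in 1 list only were therefore seen in the longer list, and they were mostly transcribed.

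Peak strength, the fold enrichment at the summit of the strongest promoter peak averaged over the lists, hardly followed the transcript level. Over the 7867 genes with a peak in both lists, Spearman's rho between strength and mean FPKM was 0.07, and Pearson's r of the log2 values was 0.06. The coefficient was 0.04 over the 5970 protein-coding genes and -0.02 over the 5347 of them that were expressed. Strength itself was moderately repeatable, with rho 0.61 between the lists over the 7867 genes, and FPKM was closely so, with rho 0.99. Genes share libraries, depth and base composition, and a weak rho over them is no finding.

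When the protein-coding genes were ordered by strength and divided into 10 groups of equal size, the median was 9.10 FPKM in the weakest group, 10.2 in the fifth and 10.96 in the strongest. The share expressed was 80.4% in the weakest group and 93.0% in the strongest, and the share silent was 8.88% and 2.85%. Among expressed genes alone the median was 15.3 FPKM in the weakest group and 12.1 in the strongest.

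**Figure D2:**
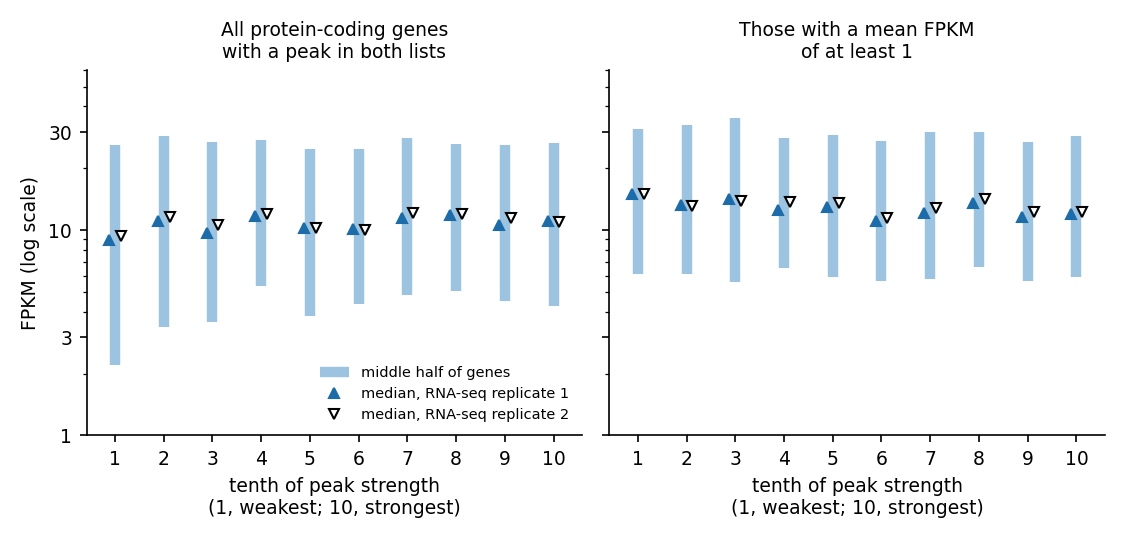
FPKM (log scale) against 10 groups of peak strength from weakest to strongest, for all protein-coding genes with a peak in both P1 lists (left) and for those with a mean FPKM of at least 1 (right). Bars span the middle 50% of the genes by mean FPKM and triangles give the median in each RNA-seq library, which stays between 8.91 and 12.1 on the left and shows no steady climb on either side.

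Of the 5 genes with the strongest promoter peaks, 3 had a mean FPKM below 1 and 2 were expressed. Il31ra, a cytokine receptor subunit, had fold enrichments of 37.8 and 32.2 with FPKM of 0.14 and 0.13. Gm13532, a processed pseudogene, had 30.1 and 31.5 and was listed at FPKM 0 in both libraries. Sspn, which encodes sarcospan of the dystrophin complex, had 26.6 and 21.7 with FPKM of 19.9 and 33.1. It was the only expressed protein-coding gene among the 5. In ATAC-seq replicate 1 the summits at Il31ra and Sspn lay in introns of these genes.

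The remaining ones were Gm24187, annotated as a microRNA, with 28.7 and 23.4, and the long intergenic RNA Gm47882 with 23.3 and 22.8. Gm24187 had FPKM of 19.1 and 2.84, far apart between the libraries, and Gm47882 had 0.27 and 0.34. In ATAC-seq replicate 1 the windows at Gm13532 and Gm47882 were 100% and 95.7% repeat-masked. The word GGTTAG stood 38 times in the window at Gm13532. The windows at Gm24187, Il31ra and Sspn were 19.7%, 16.7% and 0% repeat-masked. Low masking does not show that a sequence occurs only once in the genome, and the number of copies was not tested. Over the 50 genes with the strongest peaks, the median FPKM was 0.38 and 12 had a window at least 50% repeat-masked (24.0%, against 4.32% of all genes with a peak in both lists).

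The most abundant transcripts with a promoter peak included copies of mitochondrial sequence. Gm29216 had FPKM of 4808 and 8067, Gm10925 had 6152 and 6592, Gm28661 had 5902 and 6561, and Gm28437 had 4345 and 4905. All are unprocessed pseudogenes on chromosome 1, and 97.2% to 100% of their 31-base words were also found in the mitochondrial genome. The 37 genes of the mitochondrial genome were listed at FPKM 0 in all 8 mouse RNA-seq libraries, although cardiomyocytes use them. Reads of the 2 origins cannot be told apart in these files, so the levels and peaks of these pseudogenes are uncertain.

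Peaks were also listed on the mitochondrial genome, 6 and 7 in the P1 lists, and 23 of its 37 genes had one within the window in both. Their strength was 1.41 to 1.90, below that of every expressed protein-coding gene with a peak, where the least was 3.21. Tnnt2, cardiac troponin T, followed the 4 pseudogenes with FPKM of 3662 and 5428, and its promoter had fold enrichments of 6.08 and 3.74. Their mean of 4.91 lay below the median strength of 6.45 over all genes with a peak in both lists.

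The spread of positions, not their median, separated the peaks of expressed genes from those of silent ones. A gene was called silent when its FPKM was below 0.1 in each P1 library, which is a mean depth of 0.54 and 0.56 reads per base. Among expressed protein-coding genes the peak nearest a start covered it in 80.4% of genes in replicate 1 and 65.4% in replicate 2, and the summit lay 63 and 65 bases upstream in the median. Among the 217 silent protein-coding genes with a peak in both lists the start was covered in 35.0% and 26.7%. Among the 1042 silent genes of other types it was 20.7% and 16.1%. The median summit of the silent genes lay 79 and 72 bases upstream for protein-coding genes and 48.5 and 54 for other types. Summits lay within 500 bases of the start in 94.3% and 89.6% of the expressed protein-coding genes. For silent protein-coding genes this share was 57.6% and 54.4%. The number of starts per gene was not matched between these groups. Thus many silent genes counted as having a promoter peak through a peak elsewhere in the window.

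**Figure D3:**
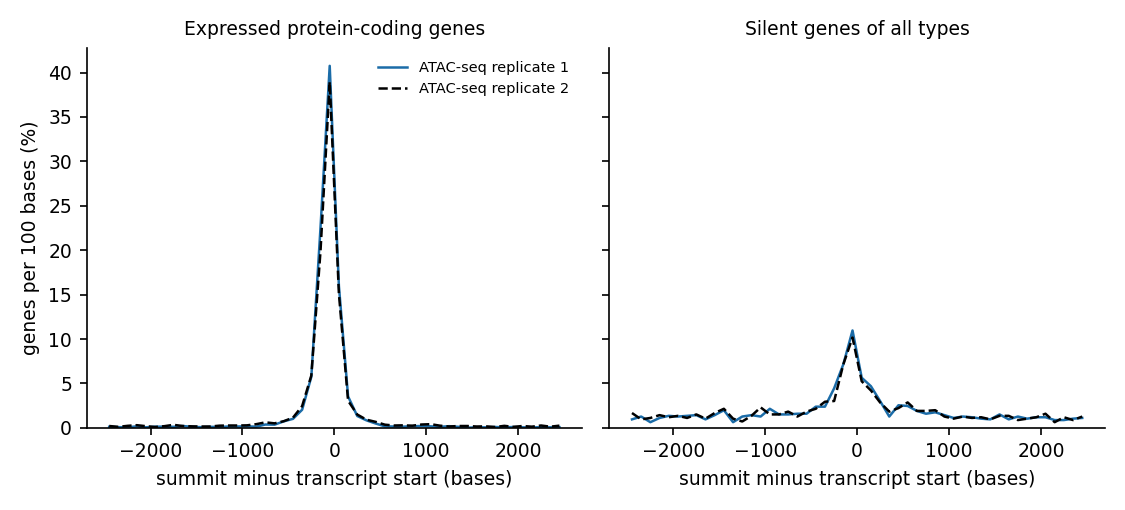
Position of the summit of the peak nearest a transcript start, in bases from that start with downstream positive, as the share of genes per 100 bases for each P1 ATAC-seq list. Expressed protein-coding genes (left) crowd just upstream of the start, and silent genes of all types with a peak in both lists (right) spread over the whole window with a lower crest at the start.

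Expressed genes without a promoter peak numbered 3394, or 26.3% of the 12897 expressed genes, and 2670 of them were protein-coding (22.7% of 11750). Another 441 were processed pseudogenes, or 92.6% of the pseudogenes of that kind that were expressed. The protein-coding ones with the highest levels were dominated by genes of the ribosome. Nppa led them with FPKM of 1719 and 2249. Rpl8 had 1168 and 998, Rpsa had 1067 and 874, and Rps15 had 996 and 890.

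Next came Rpl19 (907 and 795), Rps7 (869 and 737), Rps4x (847 and 725) and Rpl32 (804 and 662), all ribosomal proteins, and all 7 of these ribosomal genes were higher in replicate 1. Tmsb4x, thymosin beta 4, and Pfn1, profilin 1, both bind actin monomers, and their FPKM was 883 and 664, and 847 and 674. Atp5a1, the alpha subunit of ATP synthase, had 670 and 764. Saa3, an acute-phase serum amyloid protein, had 390 and 811 and was the least even of the 12.

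The nearest P1 peak to these genes lay well away. For Nppa it was 14864 and 34680 bases from a start in the 2 lists, and for Rpl8 it was 20951 and 86872. For Rps15 it was 3039 bases away in replicate 1, just outside the window. For Saa3 it was 73793 and 73865 bases away. No other gene of the 12 had one closer than 4558 bases in either list.

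The lists of P3 and P7 often held the missing peak, though less often than for genes with a P1 peak. Of the 2670 expressed protein-coding genes without a P1 peak, 481 (18.0%) had one in both lists at E18.5, 2123 (79.5%) at P3 and 1763 (66.0%) at P7. Among the 5347 with a peak in both P1 lists, the shares at these ages were 89.6%, 99.6% and 99.4%. The P3 lists held 95257 and 52040 peaks and the E18.5 lists 13149 and 14910, so list length moved with these shares and its part in them was not tested. Rpl8 had no peak at E18.5 and fold enrichments of 3.24 and 4.69 at P3 and 3.24 and 3.49 at P7, while its FPKM lay between 998 and 1415 in all 8 libraries.

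Only 241 of the 2670 (9.03%) lacked a promoter peak in all 8 lists, and their median P1 FPKM was 2.85, against 7.97 for the 1798 with a peak in 4 or more lists. Saa3 was among those without any, though its FPKM was 1228 and 839 at P7 and 5.43 and 2.14 at E18.5. Myl7, the atrial regulatory light chain, also had none, with 331 and 422 at P1. Nppa had a peak in 2 of 8 lists, with a fold enrichment of 4.11 in E18.5 replicate 1 and 2.96 in P3 replicate 2.

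Genes of the X chromosome lacked promoter peaks more often. Of 381 expressed protein-coding X-linked genes, 179 had no peak (47.0%) and 91 had one in both lists (23.9%). On the autosomes 2487 of 11364 had none (21.9%) and 5255 had one in both (46.2%), and no single autosome exceeded 27.5% without a peak. The median FPKM was 8.79 on the X and 10.9 on the autosomes. The shares without a peak were 39.2% and 19.7% at E18.5, 5.29% and 2.49% at P3 and 14.9% and 4.23% at P7, each with that age's own lists. The pups were of mixed sex, and the number of X chromosomes per library is not known.

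The letters of the promoter differed between the groups. The ratio of observed to expected CpG in the 300-base window had a median of 0.79 for expressed protein-coding genes with a peak in both lists, 0.76 with a peak in 1 list and 0.66 with none. GGGCGG was in 68.6%, 62.9% and 54.3% of these windows and CCAAT in 45.5%, 33.6% and 28.6%, whereas TATAAA was in 6.51%, 6.81% and 9.63%. Over all protein-coding genes the shares were 44.4%, 38.0% and 12.8%. A match of these letters does not show that a factor bound there, and both the peak share and the FPKM moved with CpG.

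Among expressed genes, a peak in both lists was found for 26.5% of those with a CpG ratio under 0.2, with a median FPKM of 5.88. It was found for 52.8% of those between 0.8 and 1, with a median FPKM of 12.4. Among silent genes the same shares were 1.12% and 12.4%, at FPKM medians of 0 and 0.0069. A silent gene with a CpG-rich promoter was thus still less often open than an expressed gene with a CpG-poor one.

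**Figure D4:**
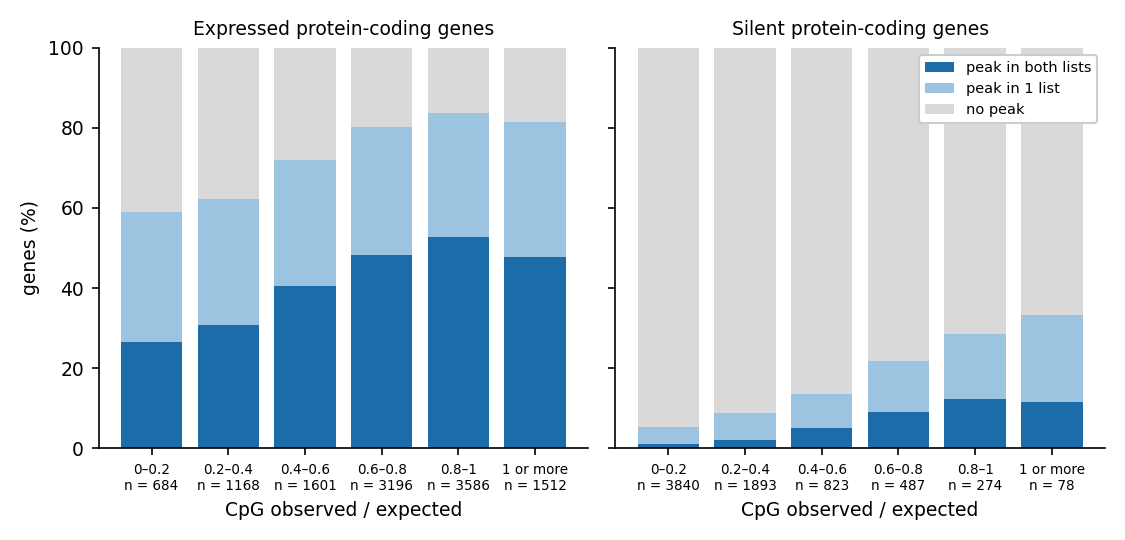
Share of protein-coding genes with a promoter peak in both P1 lists, in 1 list or in neither (per cent), by the ratio of observed to expected CpG around the most used start, for expressed genes (left) and silent genes (right). The share with a peak in both lists goes from 26.5% to 52.8% on the left and from 1.12% to 12.4% on the right, up to the bin from 0.8 to 1.

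Silent genes with a promoter peak in both lists numbered 1259, or 3.53% of the 35668 silent genes, and 217 were protein-coding (2.93% of 7410). The others included 205 long intergenic RNAs, 169 antisense genes, 123 processed pseudogenes and 106 microRNAs. Poly-A libraries capture microRNA precursors and other transcripts without a poly-A tail poorly, so a level near 0 there does not show that the gene was off.

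Many of these peaks also lay near a start of an expressed gene, which does not show which gene they act on. How often promoter peaks in general do so is not given here. At 638 of the 1259 silent genes (50.7%), and at 85 of the 217 protein-coding ones, a peak of each list lay within 2.5 kb of the start of an expressed gene as well. Xrra1 shared its strongest peak, 13.4-fold and 7.94-fold, with Spcs2, a signal peptidase subunit. The coat colour gene a, agouti, shared one of 14.0-fold and 9.41-fold with Raly. Ccnb1ip1 shared one of 12.05-fold and 8.48-fold with Parp2 and Rpph1, and Tsnaxip1 one of 12.7-fold and 7.76-fold with Ranbp10. All 4 silent genes had FPKM below 0.1 in each library.

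Of the 217, 132 had a strongest peak that was not shared with an expressed gene in either list. The strongest of them were at Gsdma2, an epithelial gasdermin (19.8 and 13.7), Slc45a1 (16.6 and 13.9), Asmt, the last enzyme of melatonin synthesis (13.4 and 13.0), and Gm11213 (11.2 and 10.02), all listed at FPKM 0 in both P1 libraries. Catspere2, of the sperm calcium channel, had 13.2 and 7.497 with FPKM of 0.04 and 0.02. The peaks of Catspere2 covered a start, and the nearest peaks of the other 4 genes lay 594 to 1565 bases from one.

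Sequence also differed between many of these peaks and the peaks at expressed genes. The windows at the strongest peaks were 69.0% repeat-masked for Gsdma2, 84.0% for Slc45a1, 88.7% for Asmt and 100% for Gm11213, where the word AGAGGC stood 39 times, and only 2% for Catspere2. Over the unshared strongest peaks of silent protein-coding genes, 34.9% in replicate 1 and 38.8% in replicate 2 were at least 50% repeat-masked, against 1.26% and 2.85% at expressed protein-coding genes. Of the 84 distinct shared peaks of silent protein-coding genes, 0 were so in each list. Over all peaks the share at least 50% repeat-masked was 15.1% and 36.1%, and over peaks not at a promoter 24.8% and 51.9%. GGGCGG was in 18.6% and 19.4% of the unshared windows and in 71.3% and 69.1% of those at expressed genes. It was in 30.9% and 24.0% of all peaks and in 8.97% and 5.60% of those not at a promoter. Whether reads from repeats were placed correctly was not tested.

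At the other ages few of these genes were expressed, as was true of silent genes without a peak, and many had a peak again. Of the 217 silent protein-coding genes with a peak, 1 (0.46%) reached FPKM 1 in both libraries at E18.5 and 0 did at P3 and at P7. Of the 6706 without a P1 peak, 18 (0.27%) did at E18.5, 0 at P3 and 3 (0.045%) at P7. Among the 217, a peak in both lists was found for 124 (57.1%) at E18.5, 174 (80.2%) at P3 and 176 (81.1%) at P7. Among the 132 whose strongest peak was not shared with an expressed gene, the shares were lower, at 38.6%, 67.4% and 68.9%. Of the 6706 silent protein-coding genes without a P1 peak, 0.31%, 10.1% and 4.59% had one at those ages. Asmt had a peak in all 8 lists, of 9.35-fold to 13.4-fold, and was listed at FPKM 0 in all 8 RNA-seq libraries.

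The limits have close cases. The protein-coding genes without a peak just above a mean FPKM of 1 were Gm7879 (1.299 and 0.72), Chrm3 (1.81 and 0.20) and Hoxb3 (0.84 and 1.17), and just below were Gm12355 (0.88 and 1.12), Epb41l5 (0.94 and 1.06) and Olfml2a (1.19 and 0.80). Each of them lay on different sides of 1 in the 2 libraries.

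Gene lists put these shares into biological terms, read against 45.5% of expressed protein-coding genes with a peak in both lists and 22.7% with none. Genes of the contractile apparatus and other cardiomyocyte markers numbered 35, of which 34 were expressed. A peak in both lists was found for 14 of them, in replicate 1 only for 16 and in neither for 5. With peaks were Tnnt2, Tpm1 (3539 and 4993), Actc1, cardiac alpha-actin (3094 and 5347), and Myh6, the alpha myosin heavy chain (1256 and 3047). Without any were, among others, Nppa, Myl7, skeletal actin Acta1 (4.14 and 5.01) and Xirp2 (0.52 and 1.45).

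Their summed FPKM was 23105 in replicate 1 and 34463 in replicate 2, and 34 of 35 were higher in replicate 2. In bulk samples fewer cells of a type and less RNA per cell cannot be told apart. The median CpG ratio of the list was 0.24, against 0.79 for expressed protein-coding genes with a peak in both lists. The 14 of 35 with a peak in both lists (40.0%) stood beside 45.5% over all expressed protein-coding genes. The list's median FPKM was 244, and protein-coding genes at 100 to 300 FPKM had a peak in both lists in 54.6%.

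Of 24 genes of excitation-contraction coupling, 9 had a peak in both lists and 7 had none. Jph2, which holds the dyad together (57.8 and 74.7), and Kcnh2, a repolarizing potassium channel (29.5 and 48.9), were among the former. Trdn, triadin (49.1 and 70.3), and Kcne1 (15.3 and 26.4) were among the latter, with no peak in any of the 8 lists. Of 24 cardiac transcription factors 14 had a peak in both lists, among them Hopx (102 and 141), Nkx2-5 (68.6 and 100) and Gata6 (55.6 and 60.2). Among the 6 without were Hand2 (52.6 and 54.0), Irx4 (8.85 and 16.1) and Tbx5 (7.57 and 10.9).

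The next list held immediate early genes, many of which respond to stimuli within minutes, and AP-1 subunits. A peak in both lists was found in 23 of 27 cases (85.2%) and none in only 1, Batf (5.98 and 4.27). The median FPKM of the list was 19.1. The count with a peak in both lists depended on the distance allowed. It was 17 of 27 both within 1 kb and within 500 bases of a start, where fatty acid oxidation genes had 16 of 25. Ier3 (156 and 150), Atf4 (133 and 126) and Jund (70.7 and 70.4) led those with a peak. The protein-coding genes at 10 to 30 FPKM had a peak in both lists in 49.5%.

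Metabolic and housekeeping lists lay nearer the 45.5% of all expressed protein-coding genes. A peak in both lists was found for 16 of 25 genes of fatty acid oxidation, 12 of 22 of glycolysis, 19 of 36 of the cell cycle, 6 of 11 histone deacetylases, 32 of 82 of the respiratory chain, 38 of 83 of the cytosolic ribosome and 32 of 75 of the mitochondrial ribosome. Those with no peak numbered 4, 2, 6, 2, 18, 15 and 19. In the same order the median FPKM of the lists was 57.1, 227, 33.7, 6.71, 165, 467 and 32.8. Protein-coding genes at 3 to 10 FPKM had a peak in both lists in 44.3%, and those at 30 to 100 in 52.4%. The share was 54.6% both at 100 to 300 and at 300 or more. Hadha and Hadhb, the subunits of the mitochondrial trifunctional protein, both lacked one, and Hadhb had FPKM of 92.5 and 91.3. Eno3, muscle enolase (242 and 344), and Pfkm, muscle phosphofructokinase (42.1 and 66.0), were the glycolytic genes without a peak.

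Replication histones ran the other way, with a peak in both lists at 41 of 67 but only 16 expressed. The count with a peak was 35 within 1 kb of a start and 30 within 500 bases. Their mRNAs end in a stem-loop and largely lack a poly-A tail, which poly-A libraries need. Hist1h1c (75.3 and 86.0) and Hist1h2bc (51.2 and 55.4) were the highest of the list. The median FPKM over the list was 0.60, and 4 members were silent with a peak.

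Genes of other cell types of the heart were often transcribed without a promoter peak. Of 20 endothelial genes 19 were expressed, 0 had a peak in both lists, 3 had one in 1 list and 17 had none. Eng (133 and 107), the mucin Emcn (89.5 and 63.7), the cadherin Cdh5 (60.8 and 51.6) and the adhesion molecule Pecam1 (43.6 and 37.9) all lacked one. The list's median FPKM was 10.2, and of protein-coding genes at 10 to 30 FPKM 18.2% lacked a peak. Pecam1 had fold enrichments of 5.41 and 5.44 at P3 and 5.09 in P7 replicate 1.

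Of 13 smooth muscle and pericyte genes 9 were expressed and 10 had no peak, with Tagln (355 and 243) and Pdgfrb (19.8 and 12.6) among them. Acta2, smooth muscle actin (723 and 755), had one in both lists at 6.65-fold and 4.29-fold. Of 17 leukocyte genes 13 were expressed and 13 had no peak, including lysozyme Lyz2 (83.3 and 112). Fibroblast genes were less one-sided, with 18 of 18 expressed, 5 with a peak in both lists, 6 in 1 and 7 in neither. Vim (689 and 518) and Fn1 (455 and 528) had a peak, and Dcn, decorin (393 and 412), Col3a1 (84.0 and 126) and Mmp2 (72.2 and 50.4) had none.

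Of 8 epicardial genes all were expressed, Wt1 (15.7 and 27.3) had a peak in both lists and 4 had none. The erythroid list had 5 of 14 matched genes expressed, none with a peak in both lists, and a summed FPKM of 12.3 and 47.0. The summed FPKM was 530 and 496 for the endothelial list and 2777 and 2806 for the fibroblast list. The part of other cells in the RNA and in the peaks was not tested. The median CpG ratio was 0.38 for the endothelial and 0.33 for the fibroblast promoters.

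**Figure D5:**
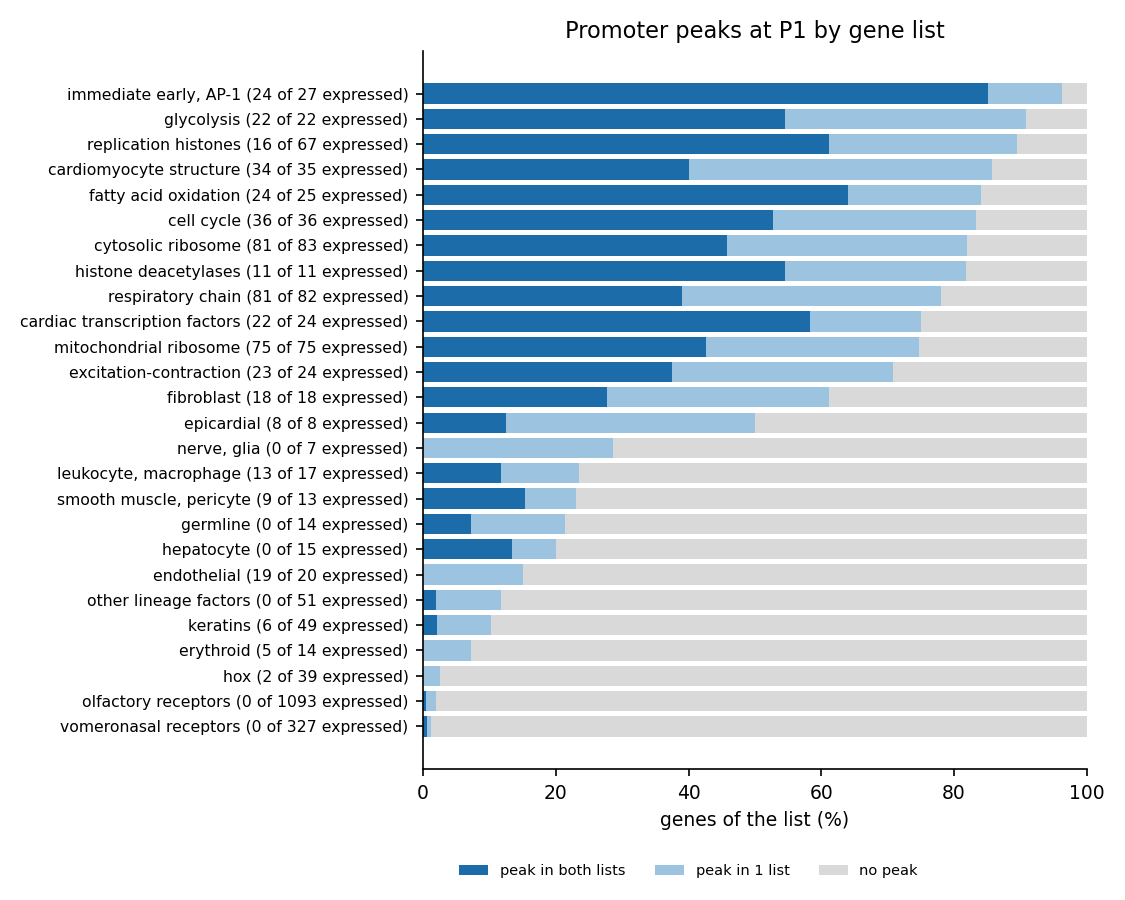
Share of genes with a promoter peak in both P1 lists, in 1 list or in neither (per cent), for each gene list, with the number expressed of the number matched beside its name, sorted by the share without a peak. Immediate early genes stand at the top with 23 of 27 in both lists, and endothelial genes, 19 of 20 expressed, stand among the lists of silent genes with 0 in both.

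Lists of genes that other cell types use had few promoter peaks, as did silent protein-coding genes in general, of which 2.93% had a peak in both lists. Of 1093 olfactory receptors 5 had a peak in both lists, and of 327 vomeronasal receptors 2 did. Of 39 Hox genes 0 did, although Hoxb2 was expressed (1.42 and 1.54). Of 51 transcription factors of other lineages only Nkx6-1, of pancreatic and neural precursors, did, with 6.31-fold and 4.34-fold peaks and FPKM 0 in both libraries.

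Among 49 keratins Krt72 alone had a peak in both lists, at FPKM 0, while Krt18 (46.7 and 62.5) and Krt8 (24.5 and 29.97) were expressed without one. The hepatocyte list had 2 of 15, Apoa2 (0.70 and 0.62) and Apoh (0.06 and 0.13), with albumin listed at 0. The germline list had 1 of 14, Gdf9 (0.42 and 0.33). Within 1 kb of a start the keratins had 0, the hepatocyte list 1 and the germline list 1. Within 500 bases these lists had 0, 0 and 1. The nerve and glia list had 0 of 7, with 0 of 7 expressed.

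The 19 genes that the study itself names were chosen on these samples and are no independent evidence. Of them 12 had a P1 peak in both lists, 4 in replicate 1 only and 3, Dcn, Pfkm and Pecam1, in neither. Ankrd1, a stress-responsive cardiac repeat protein (1331 and 1180), had fold enrichments of 7.92 and 5.38, and Hmgb2 (76.0 and 64.4) had 12.2 and 11.2. Trim72, a membrane repair protein (66.0 and 104), had 6.69 and 3.61 and a peak in no list of another age.

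The same comparison was made with each age's own libraries. The difference in median log2(FPKM + 1) between protein-coding genes with a peak in both lists and in neither was 3.35 in E18.5 libraries, 3.56 in those of P1, 3.12 in those of P3 and 3.21 in those of P7. Expressed protein-coding genes without a peak made up 20.4%, 22.7%, 2.60% and 4.61%, and silent ones with a peak numbered 169, 217, 1117 and 709. The lists at E18.5 and P1 were the shortest and those at P3 the longest, so age and list length cannot be told apart.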

How the data were processed

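Mouse ATAC-seq peak lists and RNA-seq transcript files were used, 2 libraries per assay at P1. The authors trimmed ATAC-seq reads with cutadapt, aligned them to mm10 with Bowtie2, removed duplicates with Picard, called peaks with MACS2 per library and dropped blacklisted regions. In the deposited lists, the fold enrichment at the summit is a ratio to the local background, and the deposited score ranks peaks by significance. The authors' lists also hold a −log10 p and a −log10 q per peak, of which the latter served as an alternative strength. The authors aligned RNA-seq reads with HISAT2 2.1.0 and quantified them with StringTie 1.3.5 on GENCODE vM21. The deposited FPKM, TPM and coverage per transcript come from that run. Whether strand was used is not given in the sources used here, so a gene and an overlapping antisense gene are uncertain.

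FPKM was summed over the transcripts of a gene and averaged over the 2 P1 libraries. Transcript starts numbered 132758. Depth was read from the ratio of coverage to FPKM. Analyses used Python 3.11.15, pandas 2.3.3, numpy 2.4.6 and scipy 1.17.1, and the code was tested on simulated data. Gene types came from GENCODE vM21 and sequences from GRCm38.p6, where soft-masked bases counted as repeats. Strength was the mean over the lists of the highest fold enrichment in the window. No test was run over genes, and the ATAC-seq peak lists give no read depth. Values over single libraries give the precision.

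The members and lists were chosen with earlier results of these data known. Genes were named by rule: the 5 most abundant and 5 strongest with a peak, the 12 most abundant protein-coding genes without one, the 12 strongest silent ones and the 5 strongest unshared, up to 3 with and 3 without a peak and 2 silent members of each list, genes the study names, and 3 on each side of the threshold. Any other member of a list was named after its values were seen. Alternatives covered distance, start sites, list length, gene sets, unit, pseudocount, thresholds and each library left out. After the strong peaks of silent genes were seen, their windows were searched for a CTCF core motif (not reported here) and then examined for repeats. The HiChIP and rat libraries were not used here. Some items are not reported here.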

Additional observations from a re-analysis of the deposited data

How the results depend on the processing

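No paired analysis was made, because nothing states that the replicate numbers pair the assays. No result came from a test between groups of samples. The difference in median log2(FPKM + 1) was positive under every alternative. It was 3.30 with a distance of 500 bases, 3.18 with 1 kb and 2.53 with 5 kb. For protein-coding genes it was 3.56, and with RefSeq starts, which cover protein-coding genes alone, 3.602. With the 50% of peaks with the highest scores it was 3.06, and with lists of equal length 2.99. It was 3.93 with TPM and 6.06 with a pseudocount of 0.1. For genes above 0 in both libraries it was 2.80, and for expressed genes alone 1.13. Leaving out 1 library gave 2.57 to 2.92.

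Spearman's rho of strength with FPKM was weak throughout. It turned negative (-0.00517) in the 50% of peaks with the highest scores. It was 0.0215 with 500 bases, 0.0343 with 1 kb and 0.107 with 5 kb. For protein-coding genes it was 0.0385, and with RefSeq starts, which cover protein-coding genes alone, 0.0180. It was 0.0333 with lists of equal length, 0.0300 for genes above 0 in both libraries and 0.129 with peaks summed. Leaving out 1 library gave 0.0678 to 0.143, the higher values without an ATAC-seq library.

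Genes with a peak numbered 7867 to 14033 with 1 library left out, the most without ATAC-seq replicate 2. Expressed genes without a peak numbered 3284 to 7092, the most without ATAC-seq replicate 1, and were 5604 with the 50% of peaks with the highest scores and 1732 at a threshold of FPKM 5. Silent genes with a peak numbered 1410 to 2716 with 1 library left out. They were 582 with 500 bases, 772 with 1 kb and 2045 with 5 kb. Protein-coding ones numbered 217, and 155 with RefSeq starts, which cover protein-coding genes alone. Silent genes with a peak were 752 with the 50% of peaks with the highest scores, 812 at FPKM 0 and 1912 under FPKM 0.5. The causes were not tested. One alternative was chosen after seeing the data. Without genes whose strongest peak was at least 50% repeat-masked, the difference was 3.01, rho was 0.0475, and 7527 genes had a peak, of which 1066 were silent.

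Of 168 recounts of the gene lists, 133 stayed within 1.5 times the count given. Without ATAC-seq replicate 2, 30 of the 35 cardiomyocyte genes and 2 of the 20 endothelial genes had a peak. The peak lists give no read depth, so a promoter without a peak is one where none was called.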
